A study of Homo sapiens with 54 samples.

Results

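The metallothionein genes described here are *MT1A*, *MT1E*, *MT1F*, *MT1G*, *MT1H*, *MT1M*, *MT1X* and *MT2A*. They were taken by name, 8 of the 55906 gene rows that each of the 4 expression tables holds. The rule uses none of their measured values, though the members were chosen with earlier results of these data known. Metallothioneins are very small cytosolic proteins in which cysteines bind zinc, copper and cadmium, and they buffer zinc and bind toxic metals. Their genes are among the most inducible in human cells: the zinc-sensing transcription factor MTF1 switches them on when free zinc or cadmium rises, and glucocorticoids and oxidative stress induce them as well. *MT2A* is the main isoform in most human tissues, and the *MT1* genes are a cluster of close copies of it.

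TRA2A and TRA2B are paralogous splicing regulators, and the libraries came from 4 human cancer cell lines in which either or both had been depleted. A549 and NCI-H23, both from lung cancer, stably expressed Zim3-dCas9, a nuclease-dead Cas9 fused to a repressor (CRISPRi), and received control guides (Control KD), to *TRA2A* (*TRA2A* KD), to *TRA2B* (*TRA2B* KD) or to both genes (*TRA2A/B* DKD), with collection on day 5. LN229 and LN319, labelled as glioma lines in the study, received active Cas9 and were collected on day 7. All of their cells carried a transgene, either luciferase (Luc) or *TRA2B* (overexpression, TRA2B-OE). Luc cells received guides that were control, against *TRA2A* or against *TRA2B* (Luc Control KO, Luc *TRA2A* KO, Luc *TRA2B* KO), and TRA2B-OE cells the first and second of these. Each of the 18 groups had 3 libraries, 54 in all. Cells were transduced populations and not clones, so a knockout library is a mixture of edited and unedited cells. The labels do not say whether replicates were separate cultures, so p-values measure the spread between these libraries only.

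Values are TPM, the abundance of a transcript among all transcripts of its library, a measure that divides by transcript length, so levels of different genes can be set side by side. TPM keep no record of depth, and the precision of a value is given as the SD of the 3 libraries. Scaling factors between libraries ran from 0.896 to 1.17. A549 Control KD replicate 3 stood apart from its line (median correlation with the other libraries 0.837), and A549 results are given with and without it where it matters. The targeted genes were lower under their guides in every line, though not always by much: *TRA2A* was at 7.18 TPM in A549 *TRA2A* KD against 75.1 in Control KD, and at 6.84 against 105 in NCI-H23. In the TRA2A/B DKD, *TRA2B* was at 22.4 TPM in A549 against 137, and at 23.3 in NCI-H23 against 92.2. In the knockout lines more of the target RNA remained. TPM measure RNA, so these values do not show how much protein was lost. The study checked knockdown and knockout on protein, by immunoblot. *TRA2A* was at 62.9% of control in LN229 and 33.2% in LN319 under Luc, and at 87.2 and 52.8% of its own control under TRA2B-OE, where the LN229 difference was not called (adjusted p = 0.0680). *TRA2B* was at 66.0% of control in LN229 and 35.1% in LN319. *KRT8* and *KRT18* were high in the lung lines (772 to 2804 TPM in controls), *SOX2* in the glioma lines (81.9 and 402 TPM), and the astrocyte marker *GFAP* was near absent in both glioma lines (2.84 and 2.13 TPM), as it was in A549 (2.49 TPM).

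All 8 genes lie in a cluster on chromosome 16 (hg38), between position 56608584, the start of *MT2A*, and position 56684196, the end of *MT1X*. The order along the chromosome is *MT2A*, *MT1E*, *MT1M*, *MT1A*, *MT1F*, *MT1G*, *MT1H*, *MT1X*, and *MT1G* alone is on the minus strand. Every member has an annotated transcript with a coding sequence of 183 bases without the stop codon, 61 codons, of which 20 encode cysteine. For each member the transcript with coding length nearest to that of *MT2A* was taken, so the equal length is in part set by this choice. The coding sequences of the members on which the results turn are shown from Gencode v44 because they show how alike the copies are. Capitals mark the bases that differ from *MT2A*, 14 in *MT1X*, 14 in *MT1E*, 16 in *MT1F* and 9 in *MT1G*.
MT2A: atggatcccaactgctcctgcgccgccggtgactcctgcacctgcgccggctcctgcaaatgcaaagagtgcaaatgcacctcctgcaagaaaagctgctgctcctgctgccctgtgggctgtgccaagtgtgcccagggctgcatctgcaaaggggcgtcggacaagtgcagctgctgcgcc
MT1X: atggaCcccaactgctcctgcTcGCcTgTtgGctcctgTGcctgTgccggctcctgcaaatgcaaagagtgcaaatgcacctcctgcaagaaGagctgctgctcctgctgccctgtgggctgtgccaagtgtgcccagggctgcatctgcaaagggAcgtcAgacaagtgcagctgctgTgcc
MT1E: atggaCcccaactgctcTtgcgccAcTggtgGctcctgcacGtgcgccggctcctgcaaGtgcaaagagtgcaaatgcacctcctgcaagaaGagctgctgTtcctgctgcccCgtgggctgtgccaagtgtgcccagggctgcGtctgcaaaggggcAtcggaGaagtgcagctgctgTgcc
MT1F: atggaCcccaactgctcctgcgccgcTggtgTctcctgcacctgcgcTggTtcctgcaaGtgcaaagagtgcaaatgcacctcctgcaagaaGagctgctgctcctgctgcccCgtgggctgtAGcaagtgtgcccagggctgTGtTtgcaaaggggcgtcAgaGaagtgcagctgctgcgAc
MT1G: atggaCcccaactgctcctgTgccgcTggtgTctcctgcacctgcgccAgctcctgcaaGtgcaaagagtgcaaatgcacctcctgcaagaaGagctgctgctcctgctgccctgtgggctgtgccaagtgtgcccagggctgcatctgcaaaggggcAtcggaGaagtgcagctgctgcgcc

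Such likeness bears on the measurements, because reads that fit several copies are divided among them by estimation. Of the distinct stretches of 31 bases in a member's transcripts, 3.3% also occur in another gene for *MT1F*, 12.7% for *MT2A*, 15.6% for *MT1E*, 18.9% for *MT1A*, 20.3% for *MT1X*, 23.3% for *MT1G*, 29.9% for *MT1H* and 45% for *MT1M*. By this share *MT1F* is the best separated member and *MT1M* the least. The share is taken over all annotated transcripts of a gene, so long transcripts lower it. By number, *MT1X* had the most such stretches of any member, 362 of 1783, of which 292 occur in a single other gene. How far the *MT1X* values depend on them was not tested. *MT1G* and *MT1H* share 115 such stretches, more than either shares with any other gene. The low values of *MT1G*, *MT1H* and *MT1M* are uncertain for this reason.

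Promoter sequence was found in the RefSeq table (GRCh38.p14) for 3 members, and the 250 bases before the start site are shown because members fell together in some comparisons below. Capitals mark matches to the core of the metal response element, the site that MTF1 binds, searched as TGCACNC and TGCGCNC on both strands.
MT2A, chr16:56608334-56608583, plus strand: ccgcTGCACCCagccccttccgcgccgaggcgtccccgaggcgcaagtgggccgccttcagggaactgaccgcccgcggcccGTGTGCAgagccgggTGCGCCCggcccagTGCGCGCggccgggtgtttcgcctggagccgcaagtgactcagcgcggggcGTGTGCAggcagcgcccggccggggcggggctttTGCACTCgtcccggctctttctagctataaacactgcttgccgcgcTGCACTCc
MT1X, chr16:56682220-56682469, plus strand: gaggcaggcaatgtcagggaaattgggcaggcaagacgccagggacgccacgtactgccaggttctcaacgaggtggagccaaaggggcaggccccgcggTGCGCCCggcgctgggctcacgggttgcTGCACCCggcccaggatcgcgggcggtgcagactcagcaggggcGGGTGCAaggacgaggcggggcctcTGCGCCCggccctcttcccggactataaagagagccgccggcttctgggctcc
MT1H, chr16:56669564-56669813, plus strand: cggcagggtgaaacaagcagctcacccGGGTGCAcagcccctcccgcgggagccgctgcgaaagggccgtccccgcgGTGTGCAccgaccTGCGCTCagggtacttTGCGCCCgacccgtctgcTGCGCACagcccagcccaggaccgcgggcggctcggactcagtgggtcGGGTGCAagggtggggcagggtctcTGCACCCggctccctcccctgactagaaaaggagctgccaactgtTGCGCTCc
The search gave 7 matches for *MT2A*, 4 for *MT1X* and 8 for *MT1H*. Of all 27305 promoters in the table, 24.7% held at least 1 match, 0.37% at least 4 and 0.033% at least 7. The letters TATAAA occur in the *MT2A* and *MT1X* windows and not in that of *MT1H*, and in 7.17% of all promoters. A match is a description of these letters only.

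*MT2A* was the most abundant member in all 54 libraries, and LN229 stood out for it. Its level in the control libraries was 4181, 5618 and 4668 TPM in LN229, against 667, 923 and 298 in A549, 532, 806 and 769 in NCI-H23, and 774, 703 and 674 in LN319. The LN229 values lay above every value of the other lines, whose ranges overlapped each other. By rank of the control mean, *MT2A* was gene 9 of the table in LN229, and gene 176, 158 and 155 in A549, NCI-H23 and LN319. The 4 tables were made separately, so lines are set side by side without a test, and in RNA from a whole culture a lower level in each cell cannot be told apart from fewer cells that express the gene.

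*MT1X* came next, and its level varied less between lines than that of *MT2A*. Control means in the lung lines were 94.1 ± 12.1 TPM (A549) and 174 ± 22.4 TPM (NCI-H23), and in the glioma lines 160 ± 23.3 TPM (LN229) and 97.5 ± 10.1 TPM (LN319; SD, n = 3). The high *MT2A* of LN229 thus had no counterpart in *MT1X*: *MT2A* made up 96.3% of the summed TPM of the 8 genes there, against 83.9% in A549, 67.7% in NCI-H23 and 86.7% in LN319.

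**Figure D1:**
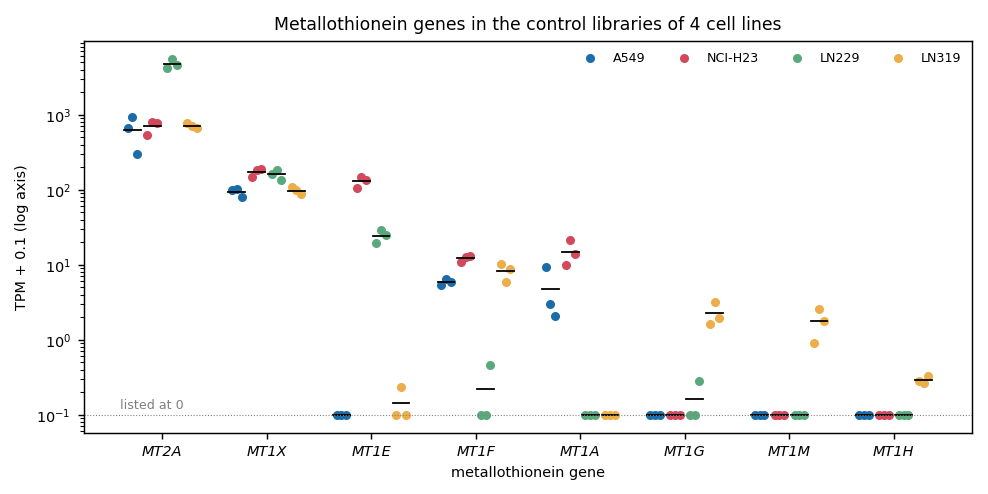
TPM + 0.1 (log axis) of each metallothionein gene in the 3 control libraries of each cell line, with a bar at the mean; points on the dotted line are listed at 0. *MT2A* in LN229 (4181 to 5618 TPM) lies above all other points, *MT1E* is high in NCI-H23 (130 TPM on average), and *MT1G*, *MT1M* and *MT1H* are above 0 in all control libraries of LN319 alone.

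The remaining *MT1* genes were found in some lines and not in others. *MT1E* was abundant in NCI-H23 (106, 149 and 135 TPM in controls), lower in LN229 (19.2, 28.8 and 24.6 TPM), listed at 0 in 11 of 12 A549 libraries and at most 0.187 TPM in LN319. *MT1F* was present in A549 (5.88 ± 0.548 TPM), NCI-H23 (12.2 ± 1.28) and LN319 (8.16 ± 2.12), and at 0 in 13 of 15 LN229 libraries. *MT1A* was present in A549 (4.66 ± 3.94 TPM) and NCI-H23 (14.9 ± 5.75) and listed at 0 in all 15 libraries of LN229 and of LN319. *MT1G*, *MT1M* and *MT1H* were detected in LN319, at 2.14 ± 0.826, 1.66 ± 0.838 and 0.194 ± 0.0343 TPM in controls, and were at 0 in nearly every library of the other lines, with 0.180 TPM as the highest value.

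Within a line the order of levels was clear at the top and not below. In NCI-H23 controls *MT1X* (149 to 192 TPM) and *MT1E* (106 to 149 TPM) overlapped, and so did *MT1A* and *MT1F* at far lower levels. In A549 *MT1F* (5.34 to 6.43 TPM) lay within the spread of *MT1A* (1.95 to 9.18 TPM). In LN319 *MT1F* was above *MT1G* and *MT1M*, whose values overlapped, and *MT1H* was below all of them.

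Fold changes were estimated for the members that reached 1 TPM in 4 or more libraries of a line. These were *MT1A*, *MT1F*, *MT1X* and *MT2A* in A549 (4 of 8), the same with *MT1E* in NCI-H23 (5 of 8), *MT1E*, *MT1X* and *MT2A* in LN229 (3 of 8), and *MT1F*, *MT1G*, *MT1M*, *MT1X* and *MT2A* in LN319 (5 of 8). *MT1H* passed in no line and is given by its values. Each line was fitted by itself with limma on log2(TPM + 0.1) after scaling, and a gene was called where its p, adjusted across the genes of the comparison, was under 0.05. Over 14 comparisons with a control there were 59 tests of a member and 8 calls, each towards a lower level. Comparisons within a line share their control libraries. The calls fell in 3 comparisons, the TRA2A/B DKD of A549 and of NCI-H23 and the *TRA2B* KO of LN319.

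**Figure D2:**
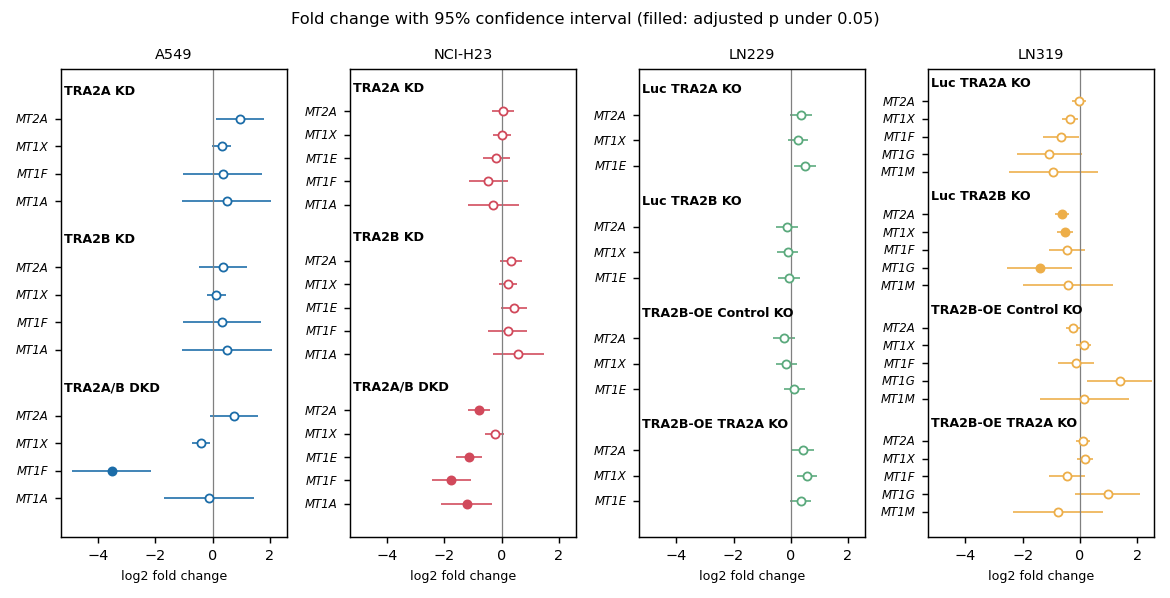
Estimated log2 fold change (horizontal axis, log2(TPM + 0.1) scale) of each tested member with its 95% confidence interval, by cell line and comparison with the own control; filled points have an adjusted p under 0.05. Filled points are found for *MT1F* in A549 TRA2A/B DKD (-3.53), for 4 members in NCI-H23 TRA2A/B DKD (-0.80 to -1.76) and for 3 in LN319 Luc *TRA2B* KO (-0.53 to -1.41).

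In NCI-H23, most of the tested family was lower when both paralogs were depleted. *MT1F*, *MT1A*, *MT1E* and *MT2A* fell in the TRA2A/B DKD, 4 of the 5 members tested, and *MT1X* did not pass. That line changed broadly, with 43.2% of all genes called in the same comparison, 3252 higher and 3783 lower, so a call by itself is common there. The median log2 fold change of the 5 members was -1.14, against 0.02 over all genes tested.

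*MT2A* measured 532, 806 and 769 TPM in NCI-H23 Control KD and 518, 384 and 438 TPM in the TRA2A/B DKD. All libraries of the DKD were below all controls, by a narrow margin for replicate 1. Groups without overlap were common in this comparison, at 53.4% of all genes after scaling. The log2 fold change of *MT2A* was -0.80 (SE 0.172, adjusted p = 0.00341). *MT1E* went from 106, 149 and 135 TPM to 85.7, 50.7 and 64.3 TPM, again without overlap. Its fold change was larger, -1.14 (SE 0.211, adjusted p = 0.00133), or 51.3% of the control mean in TPM. *MT1F* went from 10.7, 12.7 and 13.1 TPM to 6.39, 2.68 and 3.48 TPM, 34.3% of the control mean. Its log2 fold change of -1.76 (SE 0.311, adjusted p = 9.6e-04) was the largest of the family in this line, in the member whose sequence is least shared.

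*MT1A* measured 9.69, 21.1 and 13.9 TPM in NCI-H23 Control KD and 10.2, 4.25 and 6.78 TPM in the TRA2A/B DKD, where its highest value lay above the lowest control in TPM and just below it once libraries were scaled. Its call (log2 fold change -1.23, SE 0.400, adjusted p = 0.0286) was lost without Control KD replicate 2 (adjusted p = 0.105) or 3 (0.0587), without DKD replicate 2 (0.108) or 3 (0.0744), with the TPM as deposited (0.0621) and with no filter (0.0546). *MT1X*, the member next to *MT2A* in abundance, did not pass, with 149, 182 and 192 TPM in controls and 188, 142 and 160 TPM in the DKD. The groups overlapped, and the log2 fold change was -0.25 (95% CI -0.57 to 0.07, adjusted p = 0.188), but -0.63 (adjusted p = 3.5e-04) with the length and GC trend described below removed. The make-up of the family shifted accordingly: *MT1X* was 18.5, 15.6 and 17.1% of the summed TPM of the 8 genes in controls and 23.3, 24.3 and 23.7% in the DKD. The sum itself, before scaling, was 1034 ± 198 TPM in controls and 689 ± 113 TPM in the DKD (66.6%). The lowest DKD library for *MT1A*, *MT1E*, *MT1F*, *MT1X* and *MT2A* alike, replicate 2, also held the largest share of mitochondrial transcripts in its group (28.3% of TPM, against 19.3 and 19.6%), and its part in the result was not tested. Without that library *MT2A* (-0.72, adjusted p = 0.0157) still passed.

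A549 carried the same guides, and 1 member fell in its TRA2A/B DKD. *MT1F* measured 5.34, 6.43 and 5.86 TPM in Control KD and 1.34, 0.0483 and 0.618 TPM in the DKD, 11.4% of the control mean and far from overlap. The log2 fold change was -3.53 (SE 0.621, adjusted p = 0.00163), the largest of any member in any comparison here. Because a DKD library was below the pseudocount, the size depends on it, and with a pseudocount of 1 it was -2.12 (adjusted p = 2.0e-04). The call stood under all 15 alternatives tried. In this comparison 30.6% of all genes were called, and 1 of 4 members. After scaling, 42.3% of all genes had no overlap with Control KD.

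The other A549 members did not follow *MT1F*. *MT2A* was at 667, 923 and 298 TPM in Control KD and 869, 951 and 1233 TPM in the DKD, with overlap, and the log2 fold change of 0.75 (95% CI -0.09 to 1.59) had an adjusted p of 0.165. This estimate rests largely on Control KD replicate 3, the library that stands apart: it was 0.21 (adjusted p = 0.40) without it, and 1.13 (adjusted p = 0.0345) without Control KD replicate 2. *MT1X* was at 98.3, 104 and 80.5 TPM in controls and 73.6, 71.7 and 78.4 TPM in the DKD, a log2 fold change of -0.41 (adjusted p = 0.0568), or -0.59 (adjusted p = 1.8e-04) without Control KD replicate 3. *MT1A* varied several-fold within every A549 group and had a log2 fold change of -0.13 (95% CI -1.70 to 1.44). Short transcripts as a class were higher in this comparison. The median log2 fold change was 0.34 for the 447 genes with a canonical transcript of 300 to 600 bases, against 0.03 over all genes. The members have canonical transcripts of that size except *MT1E*, at 746 bases. With the trend of each library against length and GC content removed, an alternative chosen after seeing the data, *MT1X* was at -0.97 (adjusted p = 8.3e-04).

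**Figure D3:**
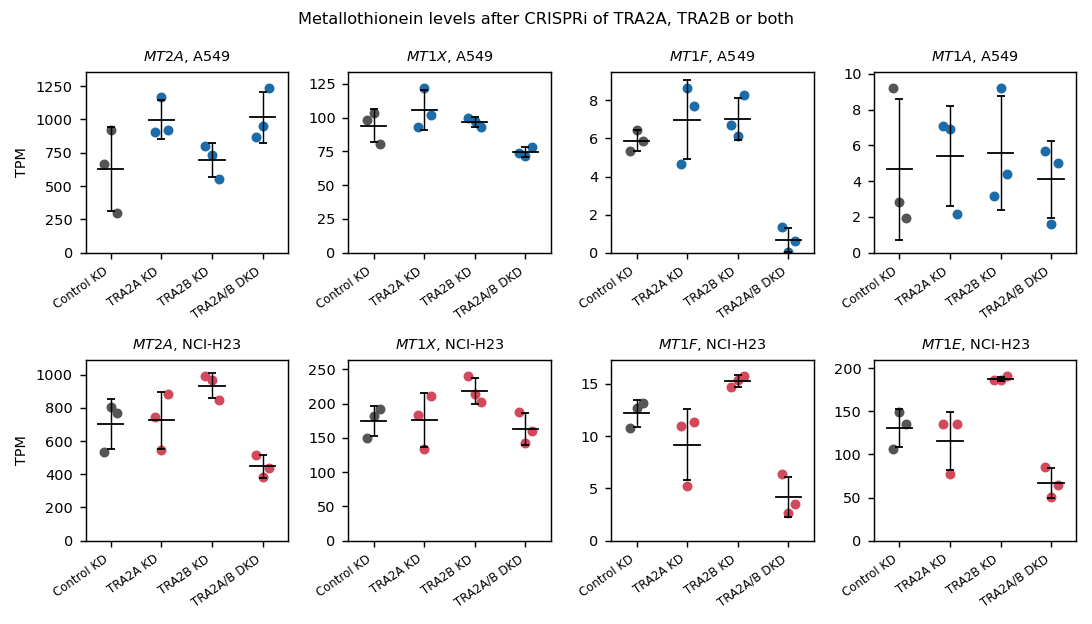
TPM (vertical axis, from 0) of 4 metallothionein genes in each of the 12 libraries of A549 (upper row) and of NCI-H23 (lower row), by guide group; grey points are Control KD, bars the mean and whiskers the SD of 3 libraries. *MT1F* is at 0.670 TPM on average in the A549 TRA2A/B DKD and at 4.18 in that of NCI-H23, below all other groups of its line but for 1 *TRA2A* KD library in NCI-H23 (5.24 TPM), and *MT2A* is at 447 TPM in the DKD of NCI-H23 against 1018 in that of A549.

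Knockdown of 1 paralog alone gave no call for any member by limma. In A549, 0 of 4 members were called in the *TRA2A* KD, where 0.207% of all genes were, and 0 of 4 in the *TRA2B* KD, where 0.341% were. In NCI-H23, 0 of 5 were called in the *TRA2A* KD (0.976% of all genes) and 0 of 5 in the *TRA2B* KD (0.196% of all genes). At an unadjusted p under 0.05 stood *MT2A* in the A549 *TRA2A* KD, 1 of these 18 tests, and 1851 of 16405 genes in that comparison. Its values of 903, 1168 and 922 TPM overlapped with Control KD before scaling and lay above it after, and its log2 fold change of 0.95 (adjusted p = 0.418) was 0.40 without Control KD replicate 3. Of all genes in that comparison, 13.5% had no overlap after scaling.

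The *TRA2B* KD of NCI-H23 differed in direction from the DKD, as estimates. All 5 members had a log2 fold change above 0 there, from 0.21 to 0.58, and none had an adjusted p under 0.513. Short transcripts as a class were higher in this comparison as well, with a median of 0.17 for 462 genes of 300 to 600 bases, against 0.003 over all genes. *MT1E*, at 746 bases, lies outside that range. With the length and GC trend removed, the estimates were 0.38 (*MT1A*), 0.28 (*MT1E*), 0.11 (*MT2A*), 0.017 (*MT1X*) and 0.015 (*MT1F*). *MT1E* was at 186, 187 and 190 TPM, above its controls of 106, 149 and 135 TPM, and *MT2A* at 989, 966 and 846 TPM, above its controls. Together with *MT1F*, 3 of 5 members had no overlap with Control KD, as did 20.3% of all genes in that comparison. The sum of the 8 genes, in TPM before scaling, was 1378 ± 94.6 TPM, 133% of control. Before scaling, the median log2 fold change of all genes was 0.12 in this comparison. The mitochondrial share of TPM was 17.8 to 19.3% in these libraries against 23.1 to 31.9% in controls. The DKD libraries held 19.3, 28.3 and 19.6%, and the part of this share in the result was not tested.

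Whether losing both paralogs did more than the sum of losing each was tested as the DKD minus both knockdowns plus the control, on the log2 scale. Depletion was not equal, as each target was higher in the DKD than in its single knockdown. *TRA2A* was at 21.5 TPM against 6.84 in NCI-H23 and at 10.4 against 7.18 in A549. *TRA2B* was at 23.3 TPM against 9.75 in NCI-H23 and at 22.4 against 13.3 in A549. In NCI-H23 the DKD was lower than the sum of the single effects for *MT2A* (-1.17, SE 0.243, adjusted p = 0.00657), *MT1E* (-1.37, SE 0.298, adjusted p = 0.00815) and *MT1F* (-1.51, SE 0.439, adjusted p = 0.0320), 3 of 5 members, where 21% of all genes were called. For *MT2A* and *MT1E* the call stood under all 21 alternatives. In both lung lines the alternative with only the compared groups is the main fit itself in this test, so it adds no check. For *MT1F* it was lost when any library other than *TRA2A* KD replicate 2 or DKD replicate 1 was left out (adjusted p up to 0.0771) and with no filter (0.0635). *MT1A* (-1.52, adjusted p = 0.0812) and *MT1X* (-0.48, adjusted p = 0.127) did not pass. Without *TRA2A* KD replicate 2, the library with the highest mitochondrial share of the line (33.4% of TPM), both did, with adjusted p of 0.0108 and 0.0151, and *MT1A* also passed without DKD replicate 1 (0.0477).

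In A549 the same test called *MT1F* (-4.21, SE 0.878, adjusted p = 0.0103) under the main setting and all 21 alternatives, and *MT1X* (-0.85, SE 0.208, adjusted p = 0.0204). These are 2 of 4 members, where 14.7% of all genes were called. The *MT1X* call was lost narrowly without *TRA2B* KD replicate 1 (adjusted p = 0.0514), without DKD replicate 1 (0.0525) or 2 (0.0502), and with the TPM as deposited (0.0540). *MT2A* had an estimate of -0.57 (95% CI -1.76 to 0.62), which was 0.01 without Control KD replicate 3.

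The regulators and companions of the metallothioneins were read from 3 lists. Zinc handling held MTF1, the exporters and vesicular transporters of the SLC30 family and the importers of the SLC39 family (25 genes), the glucocorticoid list held the receptor *NR3C1* and genes it induces (13 genes), and the stress list held genes that cadmium and oxidative or proteotoxic stress induce (9 genes). Like the members, the lists were chosen with earlier results of these data known. In the NCI-H23 TRA2A/B DKD the metallothioneins fell while much of the stress list rose: 7 of 9 genes were higher and 1 lower, where 43.2% of all genes were called. *HMOX1*, which encodes the haem-degrading enzyme haem oxygenase 1, measured 30.8, 35.5 and 38.2 TPM in Control KD and 898, 727 and 929 TPM in the DKD. Its log2 fold change was 4.45 (SE 0.0849, adjusted p = 3.6e-10). *NQO1*, a quinone reductase, rose by 1.51 and *HSPA1A*, an inducible heat shock protein, by 1.25 on the log2 scale (adjusted p = 1.7e-07 and 1.5e-06).

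Of the zinc handling genes in the same comparison, 8 of 20 tested were higher and 3 lower, 11 calls beside the same 43.2% of all genes. *SLC30A1*, the zinc exporter of the plasma membrane and itself a target of MTF1, rose by 0.39 (SE 0.103, adjusted p = 0.0106), opposite to the metallothioneins. *MTF1* did not pass (0.21, adjusted p = 0.382). The importer *SLC39A8* fell by 1.11 and *SLC39A10* rose by 0.97. Of 11 glucocorticoid genes 5 were higher and 3 lower. *TSC22D3*, which encodes the glucocorticoid-induced leucine zipper, rose by 1.65 (adjusted p = 2.3e-05) and *NR3C1* by 0.58 (adjusted p = 0.00196), whereas *FKBP5*, a chaperone cofactor induced by the receptor, fell by 1.74 and *NFKBIA* fell by 1.06.

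In the A549 TRA2A/B DKD, 4 of 19 zinc handling genes were higher and 3 lower, 7 of 11 glucocorticoid genes higher and 1 lower, and 1 of 9 stress genes higher and 1 lower, beside the 30.6% of all genes called. The share of zinc handling genes was near that of all genes. *SLC30A1* rose there as well, by 0.65 (adjusted p = 0.0138), and *TSC22D3* by 2.39 (adjusted p = 3.6e-04), *GADD45B* by 2.04 and *PER1* by 1.70. *SLC39A14* rose by 0.84 and *SLC30A3* fell by 1.32, while *MTF1* (0.42, adjusted p = 0.165) and *NR3C1* (0.33, adjusted p = 0.217) did not pass. *HMOX1* rose by 1.11 (adjusted p = 4.6e-05) from 116 to 265 TPM on average, and *SRXN1*, the enzyme that repairs peroxiredoxins, fell by 0.32 (adjusted p = 0.0400).

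**Figure D4:**
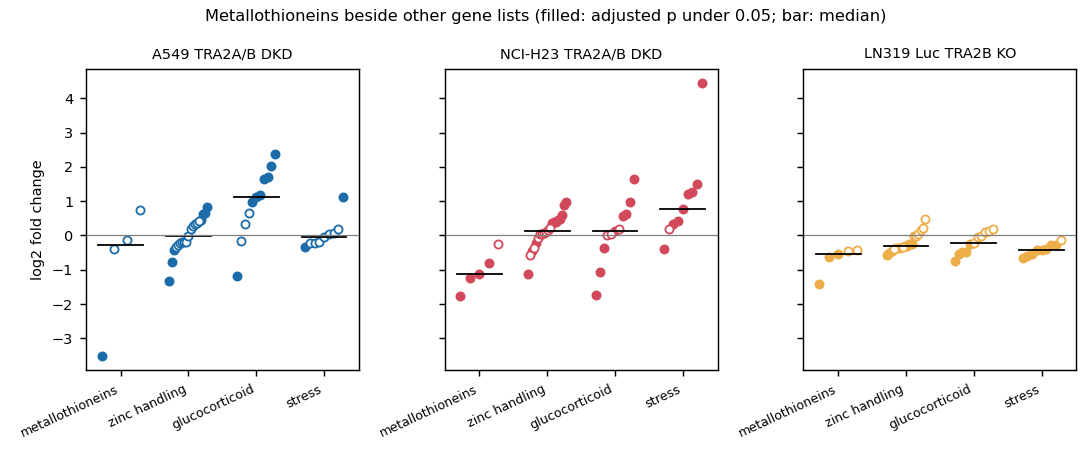
Estimated log2 fold change (vertical axis, log2(TPM + 0.1) scale) of each tested gene of 4 lists in the 3 comparisons in which a metallothionein gene was called; filled points have an adjusted p under 0.05 and bars mark the median of a list. In NCI-H23 TRA2A/B DKD the metallothioneins (median -1.14) lie below 0 and most of the stress list (median 0.79) above it, and in LN319 Luc *TRA2B* KO both medians are below 0 (-0.53 and -0.41).

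In LN319, both abundant members were lower after knockout of *TRA2B*. *MT2A* measured 774, 703 and 674 TPM in Luc Control KO and 469, 471 and 565 TPM in Luc *TRA2B* KO, without overlap, and fell by 0.63 on the log2 scale (SE 0.109, adjusted p = 6.6e-04). *MT1X* measured 107, 98.2 and 87.0 TPM against 74.1, 68.8 and 75.1 TPM, also without overlap, and fell by 0.53 (SE 0.126, adjusted p = 0.00467). Both thus came to roughly equal shares of their controls, 69.9% for *MT2A* and 74.5% for *MT1X*. *MT1X* passed here and not in NCI-H23, and that difference was not tested. Groups without overlap made up 54.8% of all genes in this LN319 comparison after scaling.

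The *MT1X* call stood under all 15 alternatives, and that of *MT2A* under 14, with the exception of quantile normalization (-0.20, adjusted p = 0.0997). *MT1G* measured 1.50, 3.07 and 1.84 TPM in controls and 0.724, 0.456 and 1.31 TPM in the knockout. Its call (-1.41, SE 0.520, adjusted p = 0.0439) was lost under 10 of 15 alternatives. Among these were each left-out control library (adjusted p = 0.0507, 0.139 and 0.0780 without replicates 1, 2 and 3), knockout replicates 1 (0.0958) and 2 (0.158), and a pseudocount of 1 (-0.83, adjusted p = 0.0561). *MT1F* measured 10.1, 5.87 and 8.56 TPM in controls and 6.59, 5.14 and 7.19 TPM in the knockout, with overlap. *MT1F* (-0.45, adjusted p = 0.232) and *MT1M* (-0.42, adjusted p = 0.674) did not pass, so 3 of 5 members were called, beside 42.6% of all genes. The median over the members was -0.53, against 0.02 over all genes tested.

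The mitochondrial share of TPM was higher in these knockout libraries (18.3 to 20.6%) than in their controls (12.1 to 12.8%), and its part in the result was not tested. Of 18 zinc handling genes 0 were called higher and 10 lower by limma, and of 9 stress genes 0 higher and 8 lower, where 42.6% of all genes were called, 3598 higher and 4633 lower. Their medians were -0.30 and -0.41, and log2 fold changes of zinc handling genes reached 0.48. *SLC30A1* fell by 0.24 (adjusted p = 0.00202), *SLC39A1* by 0.56 and *SLC39A3* by 0.52, and *SRXN1* by 0.65 and *TXNRD1* by 0.59. *HMOX1* (-0.13, adjusted p = 0.201) and *MTF1* (0.05, adjusted p = 0.658) did not pass. Of 11 glucocorticoid genes 0 were higher and 5 lower, with *NR3C1* at -0.48 (adjusted p = 1.2e-04), *SGK1* at -0.76 and *DUSP1* at -0.55, and *TSC22D3* did not pass (-0.02, adjusted p = 0.938).

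Knockout of *TRA2A* in LN319 under Luc gave 0 calls among 5 members by limma, where 14.3% of all genes were called, and 2 members had an unadjusted p under 0.05, as did 5423 of 19303 genes. All 5 estimates were below 0, from -0.04 for *MT2A* to -1.07 for *MT1G*. *MT1X* came nearest, with 73.7, 81.7 and 67.3 TPM against controls of 107, 98.2 and 87.0 TPM, without overlap, and a log2 fold change of -0.35 (SE 0.126, adjusted p = 0.0800). It passed with the TPM as deposited (-0.39, adjusted p = 0.0414) and with the length and GC trend removed (-0.41, adjusted p = 0.0396). *MT2A* was at 689, 687 and 659 TPM, close to its controls, and the 95% CI of its log2 fold change ran from -0.28 to 0.20. Of all genes in this comparison, 31.4% had no overlap with Luc Control KO after scaling.

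With TRA2B overexpression in LN319, *MT1G* and *MT1H* had their highest values of any group, though no member was called. Against Luc Control KO, 0 of 5 members were called by limma (4.31% of all genes), with 2 at an unadjusted p under 0.05, *MT1G* and *MT2A*, as were 4818 of 19303 genes. *MT1G* measured 6.03, 6.15 and 5.37 TPM in TRA2B-OE Control KO against 1.50, 3.07 and 1.84 TPM in Luc Control KO. These 3 values were alike and all above the controls, and the log2 fold change was 1.38 (SE 0.520, adjusted p = 0.127), with an adjusted p of 0.0721 to 0.297 over the alternatives. No overlap with Luc Control KO was found for 26.6% of all genes after scaling. *MT2A*, at 563, 630 and 745 TPM, had a log2 fold change of -0.24 (adjusted p = 0.187), which passed without TRA2B-OE Control KO replicate 3 (-0.38, adjusted p = 0.0315).

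*MT1G* was highest of all in TRA2B-OE *TRA2A* KO, with 16.0, 14.2 and 5.88 TPM, of which the last lay within the range of TRA2B-OE Control KO before scaling and above it after. The log2 fold change against TRA2B-OE Control KO was 0.96 (adjusted p = 0.364). In that comparison 21.5% of all genes had no overlap after scaling. *MT1H*, the neighbour of *MT1G* that shares most of its repeated sequence with it, varied in the same libraries. It was at 0.182, 0.167 and 0.232 TPM in Luc Control KO, at 0.962, 0.848 and 1.14 TPM in TRA2B-OE Control KO and at 3.58, 5.01 and 0.735 TPM in TRA2B-OE *TRA2A* KO, where replicate 3 was the lowest for both genes. All *MT1H* values in TRA2B-OE Control KO were above those of Luc Control KO, and the gene was not tested. Of the members, 0 of 5 were called for *TRA2A* KO under TRA2B-OE by limma (2.77% of all genes, 0 members at an unadjusted p under 0.05).

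The response to *TRA2A* KO was then compared between TRA2B-OE and Luc. The estimates were above 0 for all 5 members in LN319, largest for *MT1G* (2.03, SE 0.735, adjusted p = 0.516) and *MT1X* (0.53, SE 0.177, adjusted p = 0.482). By limma 0 of 5 were called, 2 had an unadjusted p under 0.05 (1527 of 19303 genes did), and 0.0207% of all genes were called. In TPM, *MT1X* was at 76.2% of control after *TRA2A* KO under Luc and 108% under TRA2B-OE.

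**Figure D5:**
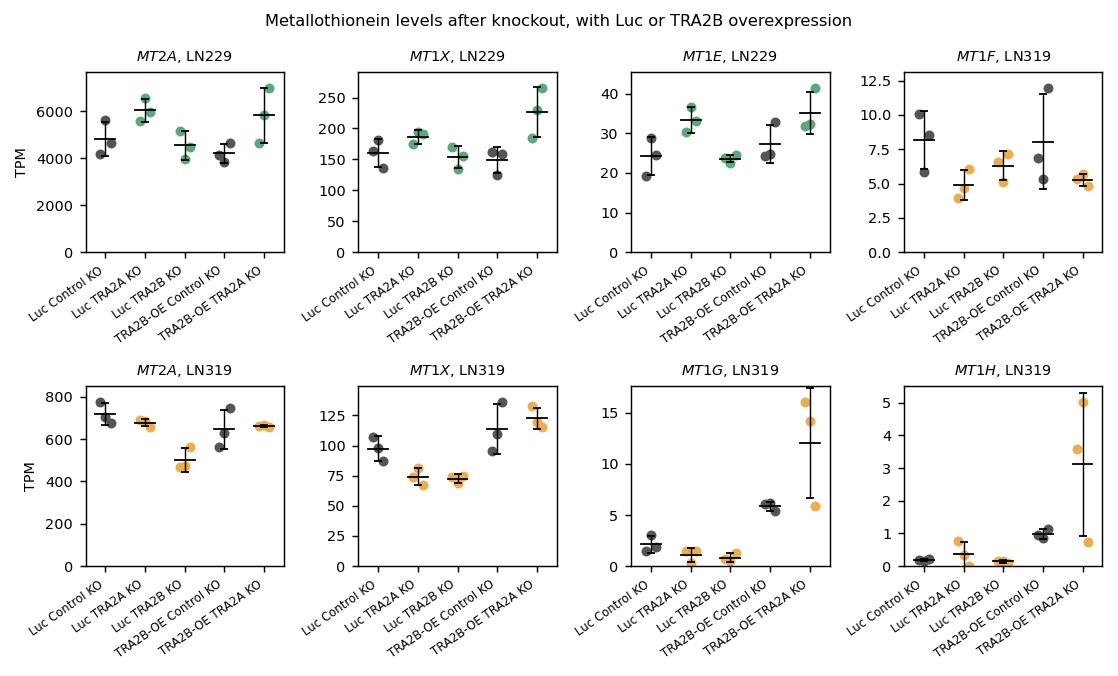
TPM (vertical axis, from 0) of metallothionein genes in each of the 15 libraries of LN229 and of LN319, by transgene and guide group; grey points are the Control KO groups, bars the mean and whiskers the SD of 3 libraries, cut at 0 for *MT1H*. In LN319, *MT2A* and *MT1X* are low in Luc *TRA2B* KO (502 and 72.6 TPM on average) and *MT1G* is at 5.37 TPM or more in all TRA2B-OE libraries, and in LN229 *MT2A*, *MT1X* and *MT1E* are at their highest means in the *TRA2A* KO groups.

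In LN229, the line with the most *MT2A*, no member was called in any comparison. By limma, 0 of 3 members were called for *TRA2A* KO under Luc (3.79% of all genes, 1 member at an unadjusted p under 0.05), 0 of 3 for *TRA2B* KO (0.557% of all genes, 0 members), 0 of 3 for TRA2B-OE (1.03% of all genes, 0 members) and 0 of 3 for *TRA2A* KO under TRA2B-OE (6.05% of all genes, 2 members). Of 18490 genes, 4002 and 4100 had an unadjusted p under 0.05 for *TRA2A* KO with Luc and TRA2B-OE. The estimates for *TRA2A* KO were above 0 for all 3 members with either transgene. *MT2A* measured 4181, 5618 and 4668 TPM in Luc Control KO and 5584, 6566 and 5992 TPM in Luc *TRA2A* KO (0.35, 95% CI -0.02 to 0.73, adjusted p = 0.260). *MT1E* was at 30.3, 36.8 and 33.2 TPM against 19.2, 28.8 and 24.6 TPM, without overlap (0.50, SE 0.172, adjusted p = 0.119). After scaling, 24.9% of all genes had no overlap in that comparison.

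Under TRA2B-OE, *MT1X* measured 184, 230 and 265 TPM after *TRA2A* KO in LN229 and 163, 125 and 159 TPM in its control, without overlap. The log2 fold change of 0.57 (SE 0.166) had an adjusted p of 0.0646, and it passed without TRA2B-OE *TRA2A* KO replicate 1 (0.73, adjusted p = 0.0321), with a minimum of 5 TPM (0.0428), with the TPM as deposited (0.0346) and with quantile normalization (0.0290). *MT2A* had a log2 fold change of 0.42 (adjusted p = 0.170) there. In this comparison 27.3% of all genes had no overlap after scaling. For the difference in response between the transgenes, 0 of 3 members and 0% of all genes were called by limma, with an unadjusted p under 0.05 for 0 members and for 1068 of 18490 genes. After *TRA2B* KO the log2 fold changes were -0.07 to -0.13, and the lowest bound of their 95% CI was -0.51.

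The 3 comparisons with a called member were also the 3 with the largest share of all genes called. The sum of the 8 genes, in TPM before scaling, came to 150% of control in the A549 TRA2A/B DKD, with overlap. It came to 66.6% in that of NCI-H23 and to 70.5% in LN319 Luc *TRA2B* KO, the last without overlap. The A549 control sum (734 ± 327 TPM) included Control KD replicate 3, the library that stands apart, and was not taken without it. The log2 fold change of *MT2A* in the A549 TRA2A/B DKD was 0.75, and 0.21 without that library. Neither the 2 lung lines nor the 2 glioma lines were compared by a test. *MT1F* was the only member called in both TRA2A/B DKD comparisons, and it was at 77.3% of control in LN319 Luc *TRA2B* KO.

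Across the libraries of a line, the genes outside the family whose scaled levels were most like that of *MT2A* were *CHCHD4*, *NHP2*, *FAU*, *MRPL14* and *TSPO*, with a mean Pearson correlation over the 4 lines of 0.878, 0.869, 0.864, 0.858 and 0.853 (12 or 15 libraries a line, 13382 genes kept in all lines). The correlations describe libraries that share their conditions and their make-up, and carry no test. For *MT1X* that mean was 0.683, and its correlation with *MT2A* was in the range of those 5 genes in NCI-H23 (0.903) and LN229 (0.866) and below all of them in LN319 (0.568) and A549 (0.396). The library with the highest mitochondrial share of its group held the lowest *MT2A* in 3 of 4 groups of NCI-H23, 3 of 4 of A549, 3 of 5 of LN229 and 2 of 5 of LN319. These counts use TPM before scaling, in which a larger mitochondrial share lowers the values of other genes in general. No such count was made for other genes, so the counts do not single out *MT2A*.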

How the data were processed

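RNA sequencing of polyadenylated RNA (directional libraries, paired ends of 150 bases) covered 54 libraries of 4 cell lines, grouped by the labels into 18 groups of 3. The deposited values are TPM, 1 table per line, which the authors made with kallisto 0.48.0 against Gencode v34 (hg38) and which hold no counts, so the depth of a library is unknown. Reads shared by near-identical genes were divided by estimation, which affects the metallothioneins.

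Each line was fitted separately. Genes that reached 1 TPM in 4 or more libraries were kept, libraries were scaled by trimmed means (30% of ratios and 5% of levels trimmed) and log2(TPM + 0.1) was fitted over all groups of the line with limma 3.58.1 in R 4.3.3 (empirical Bayes with a trend, two-sided moderated test). Fold changes are on that scale and understate the change of low genes. Benjamini-Hochberg adjustment was over all genes of a comparison, and a gene was called at an adjusted p under 0.05. The non-additive test took the double knockdown minus both knockdowns plus the control. The fit was tested on simulated data. Alternatives were other pseudocounts (0.5 and 1), no filter or a minimum of 5 TPM, TPM as deposited, quantile normalization, only the compared groups, the replicate number as a block, each library left out and, chosen after seeing the data, removal of a length and GC trend.

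The members were taken by name, and they and the lists (zinc handling, glucocorticoid-induced, cadmium-inducible stress, other metallothionein genes) were chosen with earlier results of these data known. Named from the lists were *MTF1*, *SLC30A1*, *NR3C1*, *TSC22D3* and *HMOX1*, and otherwise the 2 called genes of each list with the largest change in a comparison, and as most like *MT2A* the 5 genes outside the family with the highest mean correlation. Gene positions and transcripts came from Gencode v44. Python 3.11.15 was used for tables and figures.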

Additional observations from a re-analysis of the deposited data

Results flagged for a closer look

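In A549 the effect of the TRA2A/B DKD differed from the sum of the single knockdowns, by a test of that difference, for *MT1F* (-4.21 on the log2 scale) and *MT1X* (-0.85). In NCI-H23 it differed for *MT1E* (-1.37), *MT1F* (-1.51) and *MT2A* (-1.17). All 5 values were below 0.

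In 3 cases, from 2 pairs of cell lines, every library of a condition lay on one side of its control mean in the first line and on the other side in the second. Of genes kept in both lines, 11.5% did so in the first pair, for the TRA2A/B DKD, and 10.3% in the second, for *TRA2A* KO under Luc. The cases came from a search of all matched comparisons with a control in each pair, over the members tested in both lines. The share over all genes was taken only for the comparisons that held a case. For *MT2A* in the TRA2A/B DKD the mean log2 difference was 0.75 in A549 (libraries 0.53 to 1.02) and -0.80 in NCI-H23 (-0.93 to -0.57). After *TRA2A* KO under Luc it was 0.25 in LN229 (0.15 to 0.31) and -0.35 in LN319 (-0.42 to -0.23) for *MT1X*, and 0.35 in LN229 (0.24 to 0.48) and -0.04 in LN319 (-0.07 to -0.01) for *MT2A*. The differences between lines were not tested. The A549 value of *MT2A* was 0.21 without Control KD replicate 3, and of all these values only that of *MT2A* in NCI-H23 was called.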

How the results depend on the processing

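Of 76 tests of a member, 13 were called. No called test changed sign under any alternative, 24 uncalled tests did, 5 calls were lost under at least 1 alternative and 8 uncalled tests passed under at least 1. In the NCI-H23 TRA2A/B DKD the 4 calls became 3 with a fold limit, no filter or TPM as deposited, 5 with the length and GC trend removed and 3 to 4 with a library left out. The number of members called was 1 in the A549 non-additive test with a fold limit added or TPM as deposited (1 to 2 with a library left out), 2 in the A549 TRA2A/B DKD with quantile normalization or that trend removed (1 to 2 with a library left out), 5 in the NCI-H23 non-additive test with that trend removed and 2 with no filter (2 to 5 left out), 1 in LN229 TRA2B-OE *TRA2A* KO with a minimum of 5 TPM, TPM as deposited or quantile normalization (0 to 1 left out), in LN319 Luc *TRA2B* KO 1 with the fold limit and 2 with a pseudocount of 1, no filter, a minimum of 5 TPM, TPM as deposited, quantile normalization or the replicate block (2 to 3 left out), 1 in LN319 Luc *TRA2A* KO with TPM as deposited or the trend removed, and 0 to 1 in LN319 TRA2B-OE Control KO with a library left out. The cause of these changes was not tested.

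Values that changed sign were all uncalled. With quantile normalization they were 0.019 for *MT2A* in the A549 non-additive test, -0.00839 for *MT1X* in NCI-H23 *TRA2A* KD and -0.025 for *MT1M* in the LN319 difference between transgenes, which was -0.00627 and -0.052 with pseudocounts of 0.5 and 1. With the trend removed, *MT1F*, *MT1X* and *MT2A* were at -0.056, -0.27 and -0.034 in A549 *TRA2B* KD and *MT1X* at -0.038 in NCI-H23 *TRA2A* KD, where it was -0.00434 with TPM as deposited. With no filter *MT2A* was at -0.00183 in the LN229 difference between transgenes. With a library left out, A549 values ran from -0.050 to 1.18 for *MT1A* in *TRA2A* KD, in *TRA2B* KD from -0.029 to 1.20 (*MT1A*), -0.064 to 0.24 (*MT1X*) and -0.19 to 0.75 (*MT2A*), from -0.65 to 0.57 for *MT1A* in the DKD and from -0.95 to 0.00871 for *MT2A* in the non-additive test. In NCI-H23 *TRA2A* KD they ran from -0.54 to 0.16 (*MT1A*), -0.32 to 0.063 (*MT1E*), -0.13 to 0.18 (*MT1X*) and -0.10 to 0.23 (*MT2A*). In LN229 they ran in *TRA2B* KO from -0.23 to 0.090 (*MT1E*), -0.24 to 0.010 (*MT1X*) and -0.25 to 0.00655 (*MT2A*), in TRA2B-OE Control KO from -0.035 to 0.28 (*MT1E*), and for the difference between transgenes from -0.32 to 0.000778 (*MT1E*) and -0.074 to 0.25 (*MT2A*). In LN319 they ran from -0.072 to 0.024 for *MT2A* in Luc *TRA2A* KO, in TRA2B-OE Control KO from -0.50 to 0.094 (*MT1F*), -0.26 to 0.72 (*MT1M*) and -0.037 to 0.29 (*MT1X*), from -0.028 to 0.24 for *MT2A* in TRA2B-OE *TRA2A* KO, and for the difference between transgenes from -0.030 to 0.57 (*MT1F*) and -0.72 to 0.69 (*MT1M*).

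Same-numbered libraries of different groups correlated between -0.154 and 0.212 in their deviations, and differently numbered ones between -0.146 and 0.152. These values show no strong pairing by replicate number and cannot exclude a weak one. A fit with the replicate number as a block lost the call of *MT1G* in LN319 Luc *TRA2B* KO (2 members called) and changed no other call. With TPM as deposited the median log2 fold change of all genes moved to -0.12 in A549 *TRA2A* KD, 0.11 and 0.17 in the TRA2A/B DKD of A549 and NCI-H23, 0.26 in the A549 non-additive test, and 0.12 in both NCI-H23 *TRA2B* KD and LN319 Luc *TRA2B* KO. *MT1M* had no value with a minimum of 5 TPM. TPM give no depth, so the counting error of the members with low values is unknown.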

Other observations

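Of 13 further metallothionein genes and pseudogenes, the filter on low TPM was passed by 2 (A549), 3 (NCI-H23), 1 (LN229) and 3 (LN319). *MT1L*, a copy in the same cluster, was at 37.2 ± 15.1 TPM in NCI-H23 controls (SD, n = 3) and fell by 1.89 on the log2 scale in the TRA2A/B DKD (SE 0.278, adjusted p = 2.9e-04 by limma), with a non-additive estimate of -1.57 (adjusted p = 0.0168). *MT1XP1*, a pseudogene of *MT1X*, rose by 1.22 in LN319 Luc *TRA2B* KO (SE 0.258, adjusted p = 0.00234), the comparison in which *MT1X* fell. *MT3*, the brain metallothionein, passed the filter in LN319 alone and was not called there.

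In LN319 Luc *TRA2A* KO, 5 of 9 cadmium-inducible stress genes were called higher and 0 lower by limma (median log2 fold change 0.34), where 14.3% of all genes were called, beside 0 higher and 1 lower of 18 zinc handling genes and 3 higher and 1 lower of 11 glucocorticoid genes. In LN319 TRA2B-OE *TRA2A* KO 3 of the 9 stress genes were higher and 0 lower (2.77% of all genes called). In LN229 Luc *TRA2A* KO 2 of 9 stress genes, 3 of 12 glucocorticoid genes and 1 of 18 zinc handling genes, *MTF1*, were higher and 0 lower in each list (3.79% of all genes called). *MTF1* was also the 1 zinc handling gene called in LN229 TRA2B-OE Control KO, again higher (1.03% of all genes called). *SLC30A1* was the 1 called in LN229 TRA2B-OE *TRA2A* KO, higher (6.05% of all genes called), and the 1 called lower in LN319 Luc *TRA2A* KO.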
